A study of Mus musculus with 2 samples.

Results

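The genes described here encode tumour necrosis factor (TNF), the lymphotoxins, their receptors and 4 further TNF superfamily ligands, 10 genes in all: Tnf, Lta, Ltb, Tnfrsf1a, Tnfrsf1b, Ltbr, Tnfsf10, Tnfsf12, Tnfsf13 and Tnfsf13b. They were taken by name, and every non-control probe whose transcript accession belongs to one of them was used. Of the 10 genes, 9 had a probe, with 11 probes in all, and Tnfsf13 had none under its accessions. All 11 probes were well above background on both arrays, as were 13722 of the 23782 genes named in the whole data set. The study hybridised RNA of bone marrow-derived dendritic cells to 2 Agilent arrays in 1 colour, 1 array for mice of genotype Egr1-deficient and 1 for WT mice. Both samples are labelled male, strain C57BL/6J. Femoral marrow of both genotypes was grown with 10 ng/ml GM-CSF and the cells were harvested on day 6, with no other stimulus named in the labels. How the Egr1 allele was made, the age of the mice and the number of mice behind each culture are not given in the sources used here. The series belongs to work on lactate and inflammation in dendritic cells, and the comparison asks how the cells differ without the transcription factor EGR1.

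TNF is made as a membrane protein, cut loose by the protease ADAM17, and binds a widely expressed receptor with a death domain (Tnfrsf1a) and a second receptor found mainly on immune and endothelial cells (Tnfrsf1b). Lymphotoxin alpha (Lta) alone binds the same receptors, whereas with lymphotoxin beta (Ltb) it forms a membrane complex that signals through Ltbr and drives lymph node formation and the upkeep of dendritic cells in spleen. Tnfsf10 encodes TRAIL, a death ligand, Tnfsf12 encodes TWEAK, and Tnfsf13 and Tnfsf13b encode APRIL and BAFF, which dendritic and other myeloid cells supply to B cells as survival factors.

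Each value is a single reading, so no difference has a replicate check and no p-value was computed. Between 55.2% and 59.8% of the 59305 non-control spots were well above background, and no spot was saturated. Egr1 itself did not match the labels: its single probe read 1212 in the sample labelled EGR1-deficient and 379.7 in the WT sample, and its position relative to the disrupted part of the gene is not known here. Xist read 4559 and 3425, and 6 of 7 probes of 4 Y-linked genes did not reach that call in either sample, which goes against the male label of both. Every direction below therefore rests on the genotype labels as deposited. All 10 dendritic cell markers, among them Itgax, Zbtb46 and H2-Ab1, were above background on both arrays, and so were all 10 macrophage markers. For a gene measured by 2 probes, the log2 difference between the arrays varied with a root mean square SD of 0.40 where the mean signal was under 100, 0.29 between 100 and 500, and 0.18 above that.

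Lymphotoxin beta stood out among the 9 measured genes, and TNF and its own receptors were close on the 2 arrays. Ltb was 2.73-fold higher in the sample labelled EGR1-deficient. Tnfsf13b (BAFF) was 1.62-fold and Tnfsf10 (TRAIL) 1.5-fold lower there, and Ltbr fell short of that size at 1.46-fold lower. The other 5 genes lay within 1.3-fold. Differences are log2 processed signal, each array first divided by its 75th percentile, EGR1-deficient minus WT. Of the 9 genes, 3 were past 1.5-fold in either direction, against 7.69% of all 13722 genes measured on both arrays, and 2 were past it on the lower side, against 4.18%. Below 0 lay 7 of the 9, where 57.4% of all genes were below 0. These shares of all genes depend on the scaling: 71.6% were below 0 when scaled by the median, 47.4% when scaled by the 75th percentile of detected spots and 40.2% in the authors' series table, and the members below 0 were 7 of 9, 7 of 9 and 6 of 8 in turn, with Tnfsf12 at 0.04 and Lta not measured in the authors' series table. Of the genes past 1.5-fold, 54.3% were lower, against 77.4%, 38.4% and 26.9% under the same 3 alternatives, 63.9% and 68.5% after quantile and loess normalization, and 65.7% after normexp. The median difference was −0.22 over the 9 genes and −0.05 over all genes. In cultures measured in bulk, fewer cells of a type and less RNA per cell cannot be told apart.

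**Figure D1:**
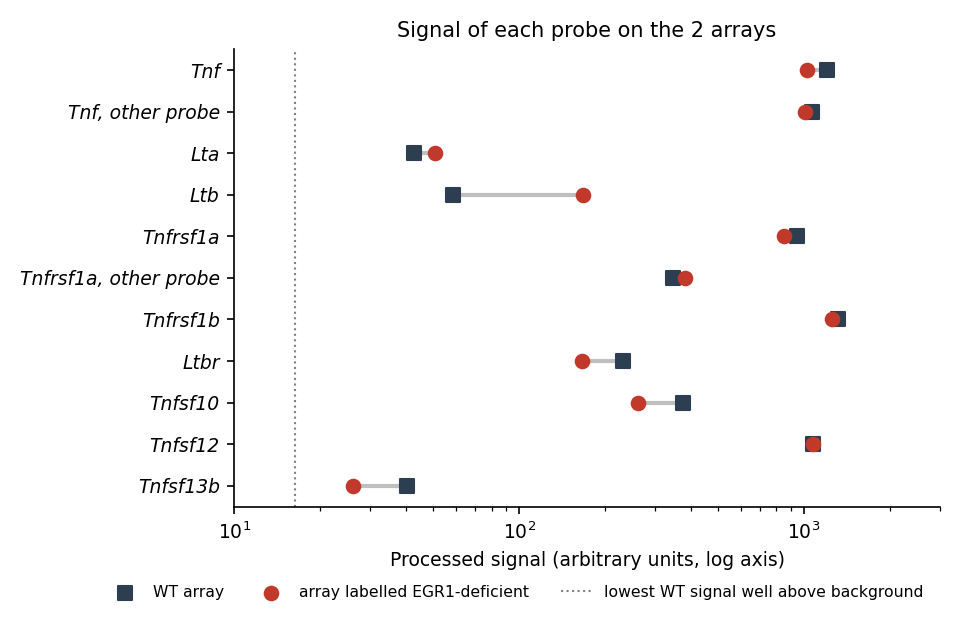
Processed signal of each of the 11 probes in the sample labelled EGR1-deficient (circles) and in the WT sample (squares), on a log axis, with a dotted line at the lowest WT signal that was well above background (16.3). The pair of symbols lies furthest apart for Ltb (167 and 58.5), and they nearly coincide for Tnfsf12 (1074 and 1078).

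Ltb, Tnf and Lta lie next to each other on chromosome 17, within the major histocompatibility complex. Ltb, which encodes the membrane anchor of the lymphotoxin complex, read 167 in the sample labelled EGR1-deficient and 58.5 in the WT sample. The log2 difference was 1.45, with an error of 0.22 from the scanner program's own estimate for the 2 spots. Both readings were well clear of the lowest signals called above background, 13.3 and 16.3. Among all genes measured on both arrays, 34 (0.248%) had a difference as high or higher. Genes 2-fold or more higher made up 0.707% of all genes and 1.62% of those with a mean signal under 100, the range that holds Ltb. Ltb was measured by 1 probe, so no other probe checks this reading.

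Tnf, the inflammatory cytokine itself, read 1026 and 1203 in its brighter probe, a difference of −0.30. Its other probe read 1008 and 1072, a difference of −0.15. Both probes were thus lower in the sample labelled EGR1-deficient, each by no more than 1.23-fold, and the scanner program's error of each difference was 0.20. Lta read 50.6 and 42.6, a difference of 0.18 with an error of 0.24. The difference of Ltb exceeded that of Lta by 1.27 log2 units, although the proteins of these genes form 1 complex.

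The genes around this cluster differed little. Of the 5 protein-coding genes with a probe on each side, a set chosen after the value of Ltb was seen, 8 were above background on both arrays. Their differences ran from −0.31 (Bag6) to 0.14 (Atp6v1g2 and Ddx39b), and none was past 1.5-fold, where 7.69% of all genes were. Lst1, the nearest on the Ltb side, read 7033 and 7207 (−0.10), and Nfkbil1, the nearest on the Lta side, read 450 and 507.8 (−0.24). Ltb passed that fold and its 8 measured neighbours did not, but with a share of 7.69% so few genes cannot set this stretch apart.

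The 250 bases before the gene start are shown for Ltb, the gene that differed most, and for Tnf, its neighbour that differed little, 5′ to 3′ on each gene's own strand. Both come from RefSeq, build GRCm38.p6: Ltb from chr17:35194257-35194506 on the plus strand and Tnf from chr17:35202008-35202257 on the minus strand. Capitals mark a match to the NF-kB pattern GGACTTTCC, read on either strand, or to the TATA box TATAAA.

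Ltb: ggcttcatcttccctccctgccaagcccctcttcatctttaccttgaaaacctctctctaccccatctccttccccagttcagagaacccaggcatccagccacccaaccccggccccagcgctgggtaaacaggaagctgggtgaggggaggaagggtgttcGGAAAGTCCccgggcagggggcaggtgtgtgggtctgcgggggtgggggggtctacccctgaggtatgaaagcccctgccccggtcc

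Tnf: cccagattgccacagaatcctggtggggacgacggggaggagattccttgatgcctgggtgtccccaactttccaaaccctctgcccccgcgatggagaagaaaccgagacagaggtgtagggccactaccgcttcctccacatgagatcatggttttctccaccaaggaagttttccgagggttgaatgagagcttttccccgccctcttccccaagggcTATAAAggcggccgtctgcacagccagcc

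The NF-kB pattern occurred once in the Ltb window, on the reverse strand from position −87 to −79, and in no other member window. Of all 32851 promoters in the RefSeq table, 0.283% held it. That share is no test of Ltb, because the pattern was settled after the search. The pattern allows no variant letters, so windows without it, that of Tnf included, may hold variants of it. The letters TATAAA matched at −29 in Tnf and at −167 in Lta, and 12.4% of all promoters held them. The EGR pattern GCGNGGGCG was found in none of the 10 member windows, which belong to 9 genes (Tnfsf12 has no entry), against 4.7% of all promoters. Only full matches were counted, and the Ltb window holds gcgggggtg, which departs from the EGR pattern in a single letter. How often such near matches occur was not counted. The interferon response pattern GAAANNGAA matched Tnfrsf1b and Tnfsf13b (7.13% of all promoters), and the AP-1 pattern TGANTCA matched Tnfsf13b and Tnfsf13 (6.75%). All patterns were read on both strands, none of these matches overlap, and the patterns were settled after the windows had first been searched. A match describes letters in a window of 250 bases and shows neither binding nor its absence.

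All 3 receptors were lower in the sample labelled EGR1-deficient in their brightest probe, by sizes that differed, where 57.4% of all genes were below 0. Ltbr, the lymphotoxin beta receptor, read 166.9 and 232.2, a difference of −0.54 with a scanner error of 0.21. With its ligand gene Ltb higher on the same array, the 2 genes differed in opposite directions. At or below the value of Ltbr lay 5.06% of all genes. Tnfrsf1b, the second TNF receptor, read 1255 and 1317, a difference of −0.14 that was smaller than its scanner error of 0.20.

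Tnfrsf1a, the TNF receptor with the death domain, read 851.9 and 948.5 in its brighter probe, a difference of −0.22. Its other probe went the other way, at 382 and 346.9, a difference of 0.07. The probes thus gave no common direction for this gene. Tnfrsf1a and Ltbr are near neighbours on chromosome 6, with Scnn1a between them at 333.4 and 332.9 (−0.06). Of the measured genes on and between both sides of this pair, 7 were above background on both arrays, with differences from −0.33 (Vwf) to 0.15 (Tapbpl).

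Among the other ligands, TRAIL and BAFF were lower in the sample labelled EGR1-deficient and TWEAK was nearly equal. Tnfsf10 (TRAIL) read 262.4 and 376.7, a difference of −0.59 with an error of 0.21, just past the 1.5-fold limit of 0.58. Among genes with a mean signal between 100 and 500, where Tnfsf10 and Ltbr lie, 4.71% were past 1.5-fold. Tnfsf13b (BAFF) read 26.2 and 40.4, a difference of −0.70 with an error of 0.30. These were the lowest readings of any member probe, and of genes with a mean signal under 100, 16.5% were past 1.5-fold. At or below the values of Tnfsf13b and Tnfsf10 lay 2.53% and 4.1% of all genes. Tnfsf12 (TWEAK) read 1074 and 1078, a difference of −0.07 that becomes 0.02 after quantile or loess normalization and 0.04 in the authors' series table.

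No probe was assigned to Tnfsf13 (APRIL), so it has no value here. Tnfsfm13, a read-through gene model that joins parts of Tnfsf12 and Tnfsf13, was not among the 10 genes, and its single probe read 124.9 and 207.4, a difference of −0.80. That probe cannot be assigned to 1 of the 2 genes. Both values are uncertain where transcripts share exons.

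**Figure D2:**
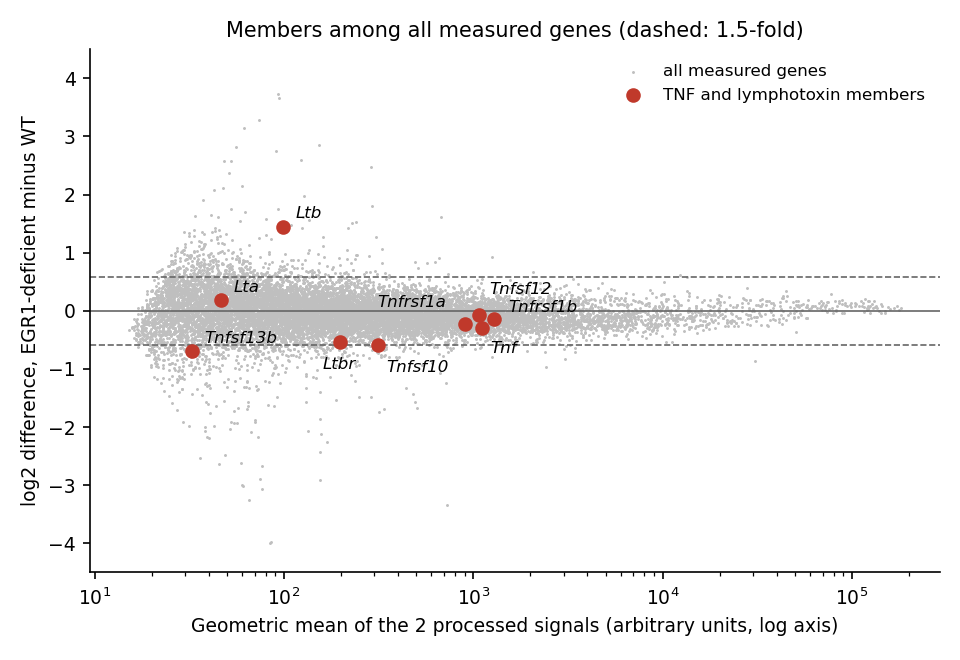
Log2 difference (EGR1-deficient minus WT) against the geometric mean of the 2 processed signals (log axis) for the 13722 genes above background on both arrays (grey) and the 9 measured members (red), with dashed lines at 1.5-fold. Ltb lies above the upper line at 1.45, Tnfsf13b (−0.70) and Tnfsf10 (−0.59) lie on or below the lower one, and the grey cloud widens toward low signals, where Lta and Tnfsf13b lie.

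The receptors of the other ligands differed little, with exceptions in both directions. Of 13 genes in that list, 9 were above background on both arrays, with a median difference of 0.05. Past 1.5-fold, 1 was higher and 1 lower, against 7.69% of all genes in either direction. Tnfrsf10b, the mouse TRAIL death receptor, read 65.6 and 61.3 (0.03). The related Tnfrsf23 and Tnfrsf26, which lack death signalling, each differed by 0.16, although another probe of Tnfrsf23 gave −0.51. A further Tnfrsf23 probe was above background in the sample labelled EGR1-deficient alone, at least 1.08-fold higher there. Tnfrsf11b, the soluble decoy osteoprotegerin, was above background in the sample labelled EGR1-deficient alone, at 14.6, too dim for a fold bound. Tnfrsf12a, the TWEAK receptor, read 61.5 and 60.6 (−0.04).

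The BAFF and APRIL receptors did not move as 1 group. Tnfrsf13c, the BAFF receptor, read 60 and 29.8, a difference of 0.94, but its other probe read 20.1 and 23.2 (−0.28). Of genes with a mean signal under 100, where Tnfrsf13c lies, 16.5% were past 1.5-fold in either direction. Tnfrsf13b (TACI) read 261.6 and 256.2 (−0.04), with another probe at 0.16. A further, dim probe of it was above background in the sample labelled EGR1-deficient alone, at least 1.4-fold higher there. Tnfrsf17 (BCMA) was not above background on either array. Sdc1, a proteoglycan that binds APRIL, read 301.9 and 502.6 (−0.80), with its other probes at −0.96 and −0.17. Tnfrsf14, a receptor of LIGHT and of lymphotoxin alpha, read 330.7 and 301.2 (0.07, another probe −0.10). LIGHT itself, the gene Tnfsf14, which shares the receptor Ltbr with the lymphotoxin complex, read 45.7 and 88.5, a difference of −1.02. The 2 ligands of Ltbr thus differed in opposite directions, Ltb at 1.45 and Tnfsf14 at −1.02, each by 1 probe.

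The genes that carry the signal inside the cell were close on the 2 arrays. All 34 adaptor, kinase and NF-kB genes of TNF and lymphotoxin receptor signalling were above background on both arrays, and their median difference was −0.07. Past 1.5-fold, 1 was lower and 0 were higher, against 4.18% of all genes on the lower side and 7.69% in either direction. That gene was Ripk3, the kinase of necroptosis, at 32.2 and 59.8 (−0.96). Its mean signal was under 100, where 16.5% of genes were past that fold in either direction. Next in size came the kinase gene Ripk1 (−0.43, another probe −0.53), the adaptor gene Traf5 (−0.43, another probe −0.42) and Rnf31, a ubiquitin ligase of the receptor complex (−0.42). For each of Ripk1 and Traf5 both probes were below 0.

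Among 11 measured genes that shed TNF or control its mRNA, the median was −0.08. Past 1.5-fold were 0 of them, against 7.69% of all genes, a share at which so short a list may hold none. Adam17, the TNF-cleaving protease, gave probes of opposite sign (0.28 and −0.41), as did Adam10 (−0.27 and 0.34). Mapkapk2, a kinase that stabilises Tnf mRNA, stood at −0.31, and Zc3h12a, a nuclease that degrades inflammatory mRNAs, at −0.24.

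Of 23 measured genes often induced by TNF, 4 were past 1.5-fold lower, against 4.18% of all genes, and 0 were higher, with a median of −0.13. They were the neutrophil attractants Cxcl1 (96.7 and 169, −0.87) and Cxcl2 (118.3 and 179.9, −0.67), the cytokine Il6 (252.2 and 418.4, −0.80, another probe −0.58) and the cyclooxygenase Ptgs2 (58.3 and 88.4, −0.67). These genes answer to many stimuli besides TNF. Ptgs2 lies among the genes of mean signal under 100, of which 16.5% were past 1.5-fold in either direction, and the other 3 among those between 100 and 500, of which 4.71% were. The remaining 19 measured genes of the list lay within 1.5-fold.

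The rest of the superfamily went both ways. Of 7 other ligands above background on both arrays, 2 were past 1.5-fold higher and 2 lower, against 7.69% of all genes in either direction, with a median of −0.15. Of these 4, Fasl alone had a mean signal over 100, below which 16.5% of genes were past that fold. The death ligand Fasl read 266 and 146.5 (0.79) and the costimulatory ligand Tnfsf4 (OX40 ligand) 40.4 and 23 (0.74). Besides Tnfsf14, Tnfsf15, a ligand that costimulates T cells, was lower in both of its probes, at −0.61 and −0.70. Of 10 other receptors the median was 0.01. Tnfrsf19 read 193 and 592.7 (−1.68), and its other probe was above background in the sample labelled EGR1-deficient alone, at least 2.22-fold higher there, so its probes contradict each other. Cd40 stood at 0.43, Tnfrsf8 at −0.26 and Tnfrsf18 at 0.24.

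**Figure D3:**
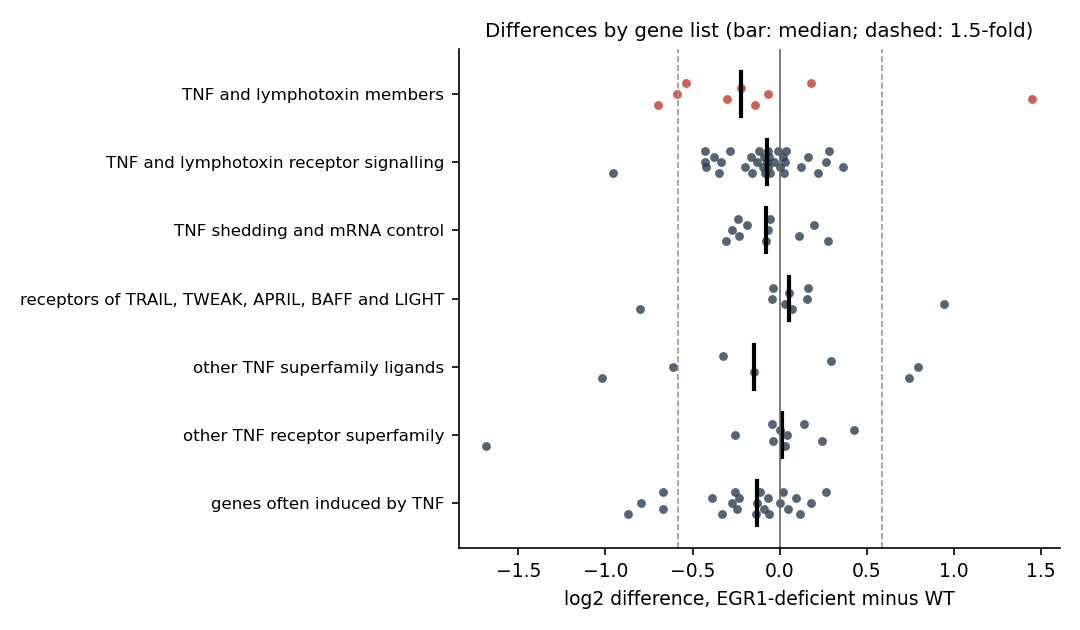
Log2 difference (EGR1-deficient minus WT) of every gene above background on both arrays in the 9 measured members (red) and in 6 lists of related genes (dark), with the median of each as a black bar and dashed lines at 1.5-fold. List medians run from −0.22 for the members to 0.05 for the receptors of TRAIL, TWEAK, APRIL, BAFF and LIGHT, and single genes such as Ltb (1.45) and Tnfrsf19 (−1.68) lie far from them.

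Ltb and Lta are also made by lymphocytes, and markers of such cells were present on both arrays. Of 12 T and NK cell markers, 11 had a probe, 7 were above background on both arrays, and the median of those was 0.18. Past 1.5-fold, 3 of the 7 were lower and 1 was higher, against 7.69% of all genes in either direction and 4.18% on the lower side. The summed signal over the list was 1491 in the sample labelled EGR1-deficient and 1055 in the WT sample, with Cd4 at 932.2 and 575.8, a gene that some dendritic cells and macrophages express too. Cd3e read 156.6 and 131.8 (0.18, another probe −0.08), Cd3g was at least 2.29-fold higher in the sample labelled EGR1-deficient, and Cd3d at least 1.73-fold lower. The 3 lower genes were dim: Il2rb read 28.3 and 56.5 (−1.06), Gata3, which the innate lymphoid list also holds, 16.8 and 28.3 (−0.82), and Klrb1c 17.9 and 26.7 (−0.65). Of all genes with a mean signal under 100, 16.5% were past 1.5-fold in either direction. Cd8a and Ncr1 were not above background on either array.

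Of 8 B cell markers, 5 were above background on both arrays, with a median of −0.58 and a summed signal over the list of 793.3 and 625.6. Ms4a1 (321.1 and 224.1) and Pax5 (382.2 and 264.2) were higher. Ebf1 (15.7 and 33.3, −1.15), Cd79b (20.9 and 42.4, −1.09) and Cd79a (25.1 and 35.8, −0.58) were lower, the first 2 of them past 1.5-fold. All 3 had a mean signal under 100, where 16.5% of genes were past that fold in either direction. The innate lymphoid list summed to 2322 and 2229. Stromal markers summed to 279.4 and 136. The 3 of 7 above background on both arrays had a median of 0.99, and all 3 were past 1.5-fold higher. The other 4 were above background in the sample labelled EGR1-deficient alone, Dcn at least 1.83-fold and Lepr at least 1.94-fold higher there. No stromal signal exceeded 74.4, within the range under 100 where 16.5% of genes were past 1.5-fold. Macrophage markers summed to 29885 and 35431, with 9 of 10 below 0 and a median of −0.35. Of all genes, 57.4% were below 0. The part of these cells in the differences of Ltb, Ltbr, Tnfsf10 and Tnfsf13b was not tested.

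The directions of the members held under other scalings, with 1 exception, and background treatment changed the size of the dim ones. The alternatives reprocess the same 2 arrays, so a sign that held is no replicate check. Tnfrsf1a, whose 2 probes differ in sign, ran from −0.34 to −0.07, the latter from the mean of its probes. For Ltb, averaging probes, keeping outlier spots or changing the filter on dim probes could not move its single probe from 1.45. Over all 10 alternatives Ltb stayed between 0.93 and 1.56, the lowest value coming from normexp background correction, which adds a constant to every spot. Tnfsf13b shrank to −0.25 under the same correction and lay between −0.83 and −0.58 otherwise. Ltbr ran from −0.66 to −0.43 and Tnfsf10 from −0.70 to −0.47, so whether these 2 pass 1.5-fold depends on the scaling. Tnfsf13b, too, fell short of 1.5-fold in the authors' series table (−0.58) and under normexp. Tnf ran from −0.41 to −0.18 and Lta from 0.06 to 0.25. Tnfsf12 was the exception, its sign turning within a range of −0.19 to 0.04.

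**Figure D4:**
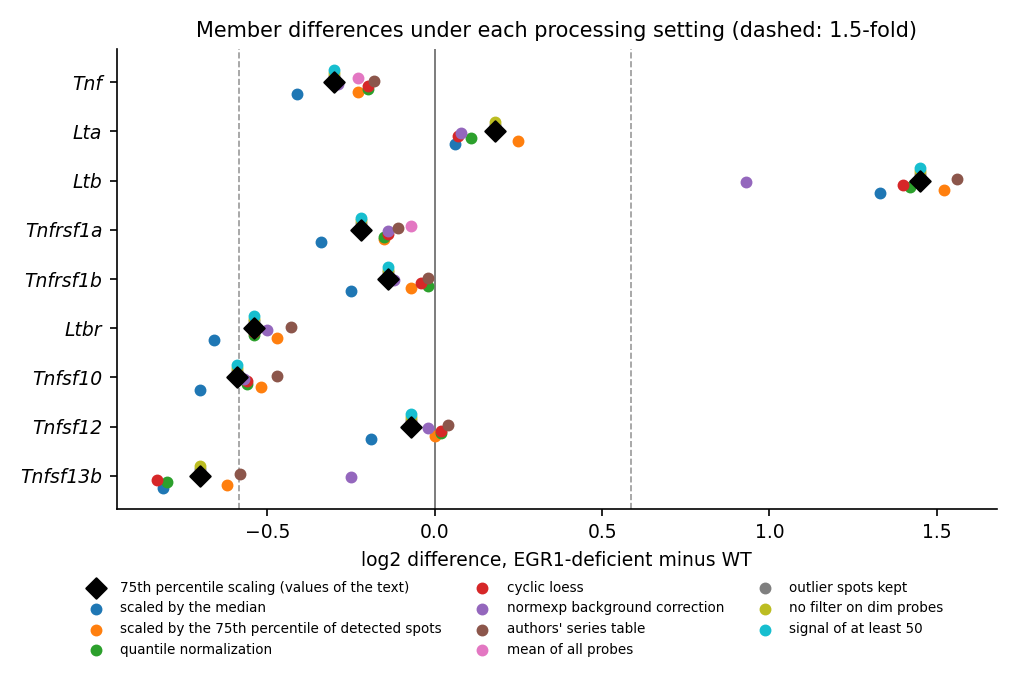
Log2 difference (EGR1-deficient minus WT) of each measured member under the scaling used in the text (black diamonds) and under each of 10 alternatives (coloured circles), with dashed lines at 1.5-fold. Ltb lies to the right of the upper line in every setting (0.93 to 1.56), Tnfsf12 straddles 0 (−0.19 to 0.04), and the normexp circle of Tnfsf13b (−0.25) lies apart from its others.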

How the data were processed

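RNA of 2 dendritic cell cultures was read on 2 one-colour arrays. The intensities are linear spot brightness, deposited by the authors as scanner output of Agilent Feature Extraction 12.1.0.3, per the file headers; the submitters' processing notes name 11.5.1.1. Per the file headers, background subtraction and detrending preceded the processed intensity, and the array design uses mm9. The authors' series table equals that intensity times 1 constant per array (6.18 and 5.97), with no centring, and served as an alternative.

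Log2 intensity minus the 75th percentile of the array's own non-control spots (191.6 and 183.0) was compared as EGR1-deficient minus WT. Outlier spots (144) were left out. Accessions were named through a RefSeq table of GRCm38.p6, which left 22043 probes unnamed. Each gene took the values of its brightest probe. At-least folds used the lowest signal well above background on the dim array. The scanner error combines both spots' program errors. With 1 array per group there was no test and no p-value; the number of arrays limits the precision. The intensity files hold no mean spot signal, so normexp (offset 50; limma 3.58.1, R 4.3.3) used the median signal. Counting was tested on simulated data (Python 3.11.15). Genes named are all members, the binding partners, and the 4 largest differences and at-least folds of 1.5 or more in each of 6 lists; others were chosen after their values were seen. Cell markers came from 9 lists. Members and lists were chosen with earlier results of these data known. Each list not described in the report is given in the closing section.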

Additional observations from a re-analysis of the deposited data

How the results depend on the processing

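Over 10 alternatives, 277 of 292 values moved by less than 0.17 log2 units, the median SD that 2 probes of 1 gene gave, or, for counts, by no more than 1.5 times. Of these 277, 26 changed sign, each from a value no further than 0.08 from 0, and the 15 that moved further kept their sign. The 277 include values that could not move, such as those of genes with 1 probe when probes were averaged. Normexp gave 0.93 for Ltb, −0.25 for Tnfsf13b, 1 member past 1.5-fold in place of 3, 198 genes past 1.5-fold in place of 1055 and 18 genes 2-fold or more higher in place of 97. Without a filter on dim probes these gene counts were 4459 and 1280, with 14292 genes below 0 in place of 7876, and with a signal of at least 50 they were 413 and 23. The authors' series table, which lists 8 of the 9 measured members and not Lta, gave 1 member past 1.5-fold and 5135 genes below 0. The members below 0 numbered 6 or 7, and their median ran from −0.34 to −0.14. The median of all genes ran from −0.17 to 0.06, so scaling alone moves it by over 0.1. List medians near 0 changed sign with scaling: −0.19 to 0.04 for receptor signalling and for shedding, −0.06 to 0.17 for the other ligands' receptors and −0.10 to 0.14 for the other superfamily receptors. That of TNF-induced genes ran from −0.24 to −0.01. Lta and Tnfsf13b lie nearest to background. No paired analysis was possible because there is 1 array per group, and for the same reason no array could be left out.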

Other observations

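Of the remaining marker lists, that of basophils, mast cells and eosinophils was lower in the sample labelled EGR1-deficient. Of its 7 genes 6 were above background on both arrays, 6 of these 6 were below 0 and 3 were past 1.5-fold lower, with a median of −0.53 and a summed signal of 4179 and 5820. Of all genes, 57.4% were below 0 and 4.18% were past 1.5-fold lower. All 8 granulocyte markers were above background on both arrays, with a median of 0.00 and 4 below 0. The 6 monocyte markers had a median of −0.06, and the 10 dendritic cell markers a median of −0.02, with Flt3 at 0.50 and Irf4 at −0.26. Of the innate lymphoid list 5 of 6 genes were above background on both arrays, with a median of 0.01.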
